A study of Homo sapiens with 12 samples.

Results

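Replication-dependent histone genes encode the histones that package newly copied DNA. The members here were all protein-coding genes whose symbol in the count tables starts with HIST1H, HIST2H, HIST3H or HIST4H, which gave 59 of the 31316 genes listed in either table. By histone type these were 6 genes of linker histone H1, 13 of H2A, 18 of H2B, 10 of H3 and 12 of H4. The rule goes by symbol, so that it also takes in HIST1H1T and HIST1H2BA, which encode testis histones. Of them, 49 had a row in the KBM7 table and 57 in the K562 table, with 47 in both. RNA-seq libraries came from 2 human chronic myeloid leukemia lines in blast crisis, KBM7 and K562, transfected with siUSP15, a commercial pool of siRNAs against the deubiquitinase USP15, or with siCtrl, a non-targeting pool. There were 2 siUSP15 and 2 siCtrl libraries of KBM7 and 4 siUSP15 and 4 siCtrl libraries of K562, all from total RNA taken 72 h after transfection. KBM7 cells were grown in IMDM and K562 cells in RPMI 1640, and K562 replicates 1 and 2 stood apart from replicates 3 and 4 across all genes, so that each set was analysed against its own controls. Nothing in the sources says whether replicates were separate cultures, and p-values therefore measure only the spread between these libraries.

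Cells make most of these histones only while they copy their DNA. The mRNAs carry no introns and as a rule no poly(A) tail. Their 3′ end instead folds into a short stem-loop, which is bound by the stem-loop binding protein SLBP and is cut by a complex that contains the U7 small nuclear ribonucleoprotein. Some of the genes also give longer, polyadenylated transcripts that run past the stem-loop, and these are known from cells that have left the cycle or differentiate. The library kit was TruSeq RNA, and whether poly(A) RNA was selected is not given in the sources used here. A list of 22 RNAs that lack a poly(A) tail was also summed. It cannot settle the question, since only 3 of these RNAs had enough reads for the KBM7 test and 3 for the K562 tests. In KBM7 cells 9 of them had a row and summed to 3.08 to 3.12 CPM (read counts scaled to the size of each library) after siUSP15 and 3.22 to 3.34 CPM after siCtrl. In K562 cells 11 of them had a row and summed to 5.48 to 8.06 CPM after siUSP15 and 5.15 to 7.83 CPM after siCtrl. Since the selection is not known, the values below are read as the part of histone RNA that these libraries captured. In bulk RNA fewer cells in S phase cannot be told apart from less histone RNA per cell.

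Of the 59 members, 56 were matched to GENCODE release 44 on hg38, and in 52 of these an exact stem-loop was found within 150 bases after the coding end. The stem-loops are shown because they are the shared 3′ end that the count models do or do not include. All lie in the 3′ UTR, and each line gives the hg38 position and the element 5′ to 3′ with the paired stem bases in capitals.
HIST1H1C, chr6:26055739-26055764, minus strand: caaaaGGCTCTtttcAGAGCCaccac
HIST1H2AC, chr6:26124664-26124689, plus strand: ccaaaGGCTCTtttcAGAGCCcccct
HIST1H2BJ, chr6:27132316-27132341, minus strand: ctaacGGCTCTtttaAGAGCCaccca
HIST1H2BK, chr6:27146361-27146386, minus strand: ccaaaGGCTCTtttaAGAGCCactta
HIST2H2BE, chr1:149886183-149886208, minus strand: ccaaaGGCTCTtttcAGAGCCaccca
HIST1H3H, chr6:27810511-27810536, plus strand: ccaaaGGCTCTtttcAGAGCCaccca
HIST1H3G, chr6:26270918-26270943, minus strand: aaaaaGGCTCTtttaAGAGCCgccta
HIST1H4H, chr6:26285126-26285151, minus strand: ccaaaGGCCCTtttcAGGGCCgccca
HIST1H4I, chr6:27139649-27139674, plus strand: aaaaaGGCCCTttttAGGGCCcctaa
The search asked for a fully paired 6-base stem that begins with GGC around a 4-base loop that begins with TTT. These letters were therefore fixed in advance, and stem-loops of another form would not be found. Within this pattern 5 core sequences occurred. All 12 H4 members carried a stem that opens with GGCCCT, and the 40 stem-loops of the other types all opened with GGCTCT. The most frequent core, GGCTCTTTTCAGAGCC, stood in 30 members, 4 of H1, 8 of H2A, 12 of H2B and 6 of H3. A variant with another loop, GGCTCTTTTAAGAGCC, was found in 9 members, among them HIST1H2BJ, HIST1H2BK and HIST1H3G.

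The gene models used for counting differed around this element. In 31 members the model in the tables ended before the end of the stem-loop, in 5 it ran up to 100 bases beyond it, and in 16 it ran more than 100 bases beyond it. HIST1H1C and HIST1H2BK were of the first kind, with models that cover 642 and 381 bases. HIST2H2BE, HIST1H2AC and HIST1H2BD were of the last kind, with models that end 43984, 14432 and 12747 bases past the stem-loop. The 16 long models took between 66.0% and 67.4% of all member reads in each KBM7 library, and between 39.5% and 42.5% in each K562 library. The HIST2H2BE model also spans HIST2H2AA4 and HIST2H4B, and the HIST1H2BN model spans HIST1H2AK and HIST1H2AL. Near-identical copies add a further limit. In 10 members more than 50% of all 50-base windows occurred in another gene, for example 96.5% in HIST1H3D, 83.9% in HIST1H2AD and 57.2% in HIST1H2BK, so that their counts can depend on how reads with several matches were treated. HIST1H1C, HIST1H3H and HIST1H2BG had no such window, and HIST1H2AC had 0.4%.

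Promoters were available from RefSeq for 48 members (250 bases before to 50 after the start, GRCh38.p14). They are shown for 3 members of different types, whose elements differ while the genes were measured in the same libraries. Capitals mark the TATA box TATAAA, the NF-Y element CCAAT, the octamer motif ATTTGCAT and the H1 motif AAACACA on either strand, and where these overlap they run together.
HIST1H1C, chr6:26056421-26056720, minus strand: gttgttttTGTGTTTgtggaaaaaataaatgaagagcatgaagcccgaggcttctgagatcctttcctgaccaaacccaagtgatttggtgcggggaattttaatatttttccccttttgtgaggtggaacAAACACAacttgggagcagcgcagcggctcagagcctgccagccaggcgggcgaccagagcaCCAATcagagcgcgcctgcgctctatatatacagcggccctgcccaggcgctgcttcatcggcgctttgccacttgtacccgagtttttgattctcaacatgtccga
HIST2H2BE, chr1:149886633-149886932, minus strand: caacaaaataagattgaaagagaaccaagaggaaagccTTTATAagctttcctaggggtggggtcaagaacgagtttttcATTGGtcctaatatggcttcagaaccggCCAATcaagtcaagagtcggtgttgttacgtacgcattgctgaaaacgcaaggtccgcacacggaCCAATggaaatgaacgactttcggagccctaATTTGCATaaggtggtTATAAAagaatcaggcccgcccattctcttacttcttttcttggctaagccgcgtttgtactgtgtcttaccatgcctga
HIST1H4H, chr6:26285485-26285784, minus strand: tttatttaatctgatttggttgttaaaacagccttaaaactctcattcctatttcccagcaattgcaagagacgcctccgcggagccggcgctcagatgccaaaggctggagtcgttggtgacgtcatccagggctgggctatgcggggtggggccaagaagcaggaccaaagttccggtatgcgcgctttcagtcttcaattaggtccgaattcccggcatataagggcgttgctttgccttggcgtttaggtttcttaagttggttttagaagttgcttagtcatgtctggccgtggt
AAACACA, the motif known from H1 promoters, stood in 6 of 6 H1 members, 1 of 11 H2A members and none of the 31 others, against 5.6% of 35116 promoters of all genes. ATTTGCAT, the octamer bound by POU factors such as POU2F1, stood in 13 of 16 H2B and 8 of 11 H2A promoters and in none of the H1, H3 or H4 promoters, against 1.8% of all promoters. CCAAT, the element bound by NF-Y, was found in every H1, H2A, H2B and H3 promoter and in 1 of 10 H4 promoters, against 34.6% of all promoters. TATAAA was found in 60.4% of the members and in 11.5% of all promoters. A match is a description of letters within this window only.

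Between 23450607 and 29441118 reads were counted to genes in the KBM7 libraries and between 23020401 and 43566543 in the K562 libraries. USP15 itself fell in each comparison, to 113 and 114 CPM in KBM7 siUSP15, against 210 and 216 CPM in siCtrl (log2 fold change -0.91). In K562 it had 116 and 134 CPM in siUSP15 replicates 1 and 2, against 269 and 275 CPM in their controls, and 191 and 197 CPM in siUSP15 replicates 3 and 4, against 343 and 330 CPM in theirs. Mitochondrial reads made up 2.06% to 2.67% of KBM7 libraries, 4.83% to 5.43% of K562 replicates 1 and 2 and 3.2% to 3.27% of replicates 3 and 4. Of the markers, the erythroid list summed to 24.7 to 31.1 CPM in KBM7 siUSP15, 91.5 to 109 CPM in KBM7 siCtrl and 2875 to 3383 CPM in K562, and the myeloid progenitor list to 597 to 656 CPM in KBM7 and 15.4 to 28.9 CPM in K562. T cell markers summed to at most 18.2 CPM, and the epithelial markers, nearly all EPCAM, to 83.4 to 95.4 CPM in K562 and at most 0.0844 CPM in KBM7.

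The members took a small share of all reads. In KBM7 they held 1945 and 1755 reads in siUSP15 and 2911 and 2435 reads in siCtrl, which was 0.00687% and 0.00748% of the library after siUSP15 and 0.00989% and 0.0102% after siCtrl. The 95% Wilson intervals of these shares, which cover counting error only, ran up to 0.00784% in siUSP15 and down to 0.00953% in siCtrl. In K562 the share was 0.0744% to 0.0899% after siUSP15 and 0.0822% to 0.106% after siCtrl. Coverage was uneven among the members. In KBM7, 20 of 49 members had fewer than 10 reads over the 4 libraries and 14 had 100 or more, while in K562 11 of 57 had fewer than 10 reads over the 8 libraries and 29 had 100 or more. A filter on low counts left 20 members in the KBM7 test and 30 in the K562 tests.

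A few genes held most of these reads. HIST1H1C, which encodes linker histone H1.2, took 39.7% of the member reads in the average K562 library, followed by HIST1H2AC with 15.2% and HIST1H2BK with 12.3%. In the average KBM7 library HIST1H2AC led with 26.6%, followed by HIST1H1C with 13.8% and HIST1H2BK with 11.3%. All H4 members together summed to 2.24 and 2.53 CPM in KBM7 siUSP15 and 3.38 and 3.73 CPM in KBM7 siCtrl.

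**Figure D1:**
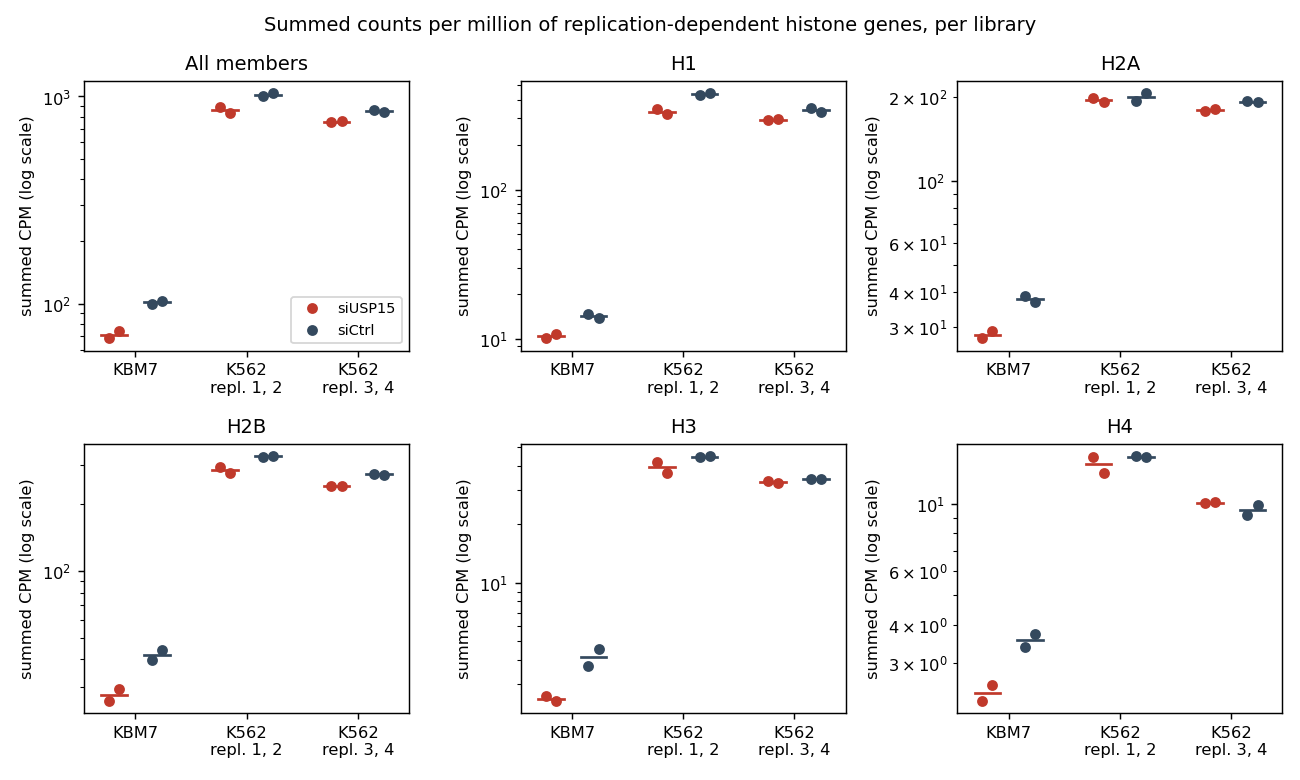
Summed CPM (log scale) of the members with a row in the table of each line, for all members and by histone type, with 1 point per library, a bar at the mean of 2, siUSP15 in red and siCtrl in dark blue. All members together sit at 68.1 and 74.1 CPM in KBM7 siUSP15, below 100 and 103 CPM in KBM7 siCtrl, far below all K562 libraries.

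The first comparison asked what siUSP15 did to histone RNA in KBM7 cells. Here 10 of the 20 members tested fell and none rose, and 19 of the 20 had a log2 fold change below 0 (edgeR's quasi-likelihood test, Benjamini-Hochberg adjustment over 14980 genes). Among all genes tested, 15.8% fell and 13.2% rose. At an unadjusted p under 0.05, 12 members were lower and 0 were higher, and DESeq2 and limma-voom called 0 higher. The share of all genes at an unadjusted p under 0.05 was not counted, here or in the comparisons below. The members' median log2 fold change was -0.52, against 0.00067 over all genes. Their summed level was 68.1 and 74.1 CPM in siUSP15 and 100 and 103 CPM in siCtrl. The mean decreased by 30.1%, and without HIST1H1C it decreased by 30.7%. By type the changes of the mean sums were -26.9% for H1, -25.5% for H2A, -34.2% for H2B, -38.9% for H3 and -32.8% for H4, with no overlap between siUSP15 and siCtrl libraries in any type. The share of all genes without such overlap was not counted, here or below. In siCtrl, HIST1H1C made up 13.7 of the 14.2 CPM of H1, and HIST1H3G 2.06 of the 4.13 CPM of H3. H3 and H4 each rested on 58 to 108 reads per library. In the same KBM7 libraries all 4 of the 6 erythroid markers that were tested fell and the T cell list summed to 7.56 and 9.29 CPM in siUSP15 and 12.5 and 13.9 CPM in siCtrl, and their part in the result was not tested.

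HIST1H1C was the only H1 gene with enough reads for the test. It had 9.73 and 10.5 CPM in KBM7 siUSP15, against 14.3 and 13.1 CPM in siCtrl. Both siUSP15 libraries lay below both controls, and the log2 fold change was -0.44 ± 0.10 (SE, n = 2 libraries each, edgeR adjusted p = 0.00625).

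The other H1 genes stood near the limit of these libraries. HIST1H1E, which encodes linker histone H1.4, had 0.14 and 0.127 CPM in KBM7 siUSP15, against 0.276 and 0.339 CPM in siCtrl. HIST1H1D, which encodes H1.3, had 0.14 and 0.0844 CPM in siUSP15, against 0.172 and 0.212 CPM in siCtrl. Both lay lower in each siUSP15 library than in either control, and neither had enough reads for the KBM7 test. HIST1H1B had no row in the KBM7 table used here, and HIST1H1A and HIST1H1T did not exceed 0.0423 CPM in any KBM7 library.

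Among the H2A genes 3 of 5 tested fell. HIST1H2AC had 18.9 and 20.9 CPM in siUSP15, against 26.2 and 25.4 CPM in siCtrl, with a log2 fold change of -0.38 ± 0.08 (edgeR adjusted p = 0.00346). HIST3H2A, of the small cluster on chromosome 1, had 5.39 and 4.56 CPM in siUSP15, against 7.65 and 7.11 CPM in siCtrl (log2 fold change -0.56 ± 0.13, edgeR adjusted p = 0.0082). In both genes the groups did not overlap. HIST1H2AD, of whose 50-base windows 83.9% occur in other genes, had 0.455 and 0.338 CPM in siUSP15, against 0.758 and 0.931 CPM in siCtrl, and its call (log2 fold change -1.05 ± 0.35) was lost when any 1 of the 4 libraries was left out. HIST1H2AG did not pass, with 2.07 and 2.24 CPM in siUSP15, against 2.93 and 2.88 CPM in siCtrl (log2 fold change -0.44 ± 0.18, edgeR adjusted p = 0.0881).

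The H2B genes gave the most calls by number, 5 of 9 tested, and were also the type with the most members tested. HIST1H2BJ had 2.8 and 4.14 CPM in siUSP15, against 5.62 and 6.48 CPM in siCtrl, and HIST1H2BK had 7.11 and 8.36 CPM in siUSP15, against 10.6 and 13.4 CPM in siCtrl. HIST1H2BD, the member with the lowest adjusted p, had 4.73 and 4.77 CPM in siUSP15, against 7.79 and 7.11 CPM in siCtrl. Their log2 fold changes were -0.81 ± 0.18, -0.63 ± 0.13 and -0.65 ± 0.13, with edgeR adjusted p of 0.00569, 0.00444 and 0.00268. These 3 calls held without any 1 library and under every other setting tried. HIST1H2BN, at 2.07 and 1.98 CPM in siUSP15, against 3.27 and 3.51 CPM in siCtrl, also fell (log2 fold change -0.74 ± 0.18), as did HIST2H2BE, at 5.78 and 6.63 CPM in siUSP15, against 8.58 and 7.75 CPM in siCtrl (-0.41 ± 0.13). HIST1H2BC had as large a log2 fold change as HIST1H2BJ, -0.81 ± 0.31, and missed the threshold (edgeR adjusted p = 0.0658). HIST3H2BB was the 1 member above 0, with 0.805 and 0.718 CPM in siUSP15, against 0.655 and 0.762 CPM in siCtrl, and did not pass the test.

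HIST1H3G fell by 0.94 ± 0.23 on the log2 scale (edgeR adjusted p = 0.00904), with 1.12 and 1.01 CPM in siUSP15, against 1.96 and 2.16 CPM in siCtrl. The other H3 genes tested were HIST1H3H, at 0.700 and 1.01 CPM in siUSP15, against 0.999 and 1.35 CPM in siCtrl, and HIST1H3D, at 0.595 and 0.422 CPM in siUSP15, against 0.62 and 0.72 CPM in siCtrl. Neither passed the test. Nor did the 2 H4 genes tested, HIST1H4H with 0.595 and 0.971 CPM in siUSP15, against 1.07 and 1.1 CPM in siCtrl, and HIST4H4 with 0.875 and 1.14 CPM in siUSP15, against 0.896 and 1.19 CPM in siCtrl. Without KBM7 siCtrl replicate 1, 5 members fell in place of 10, and DESeq2 also called 5.

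**Figure D2:**
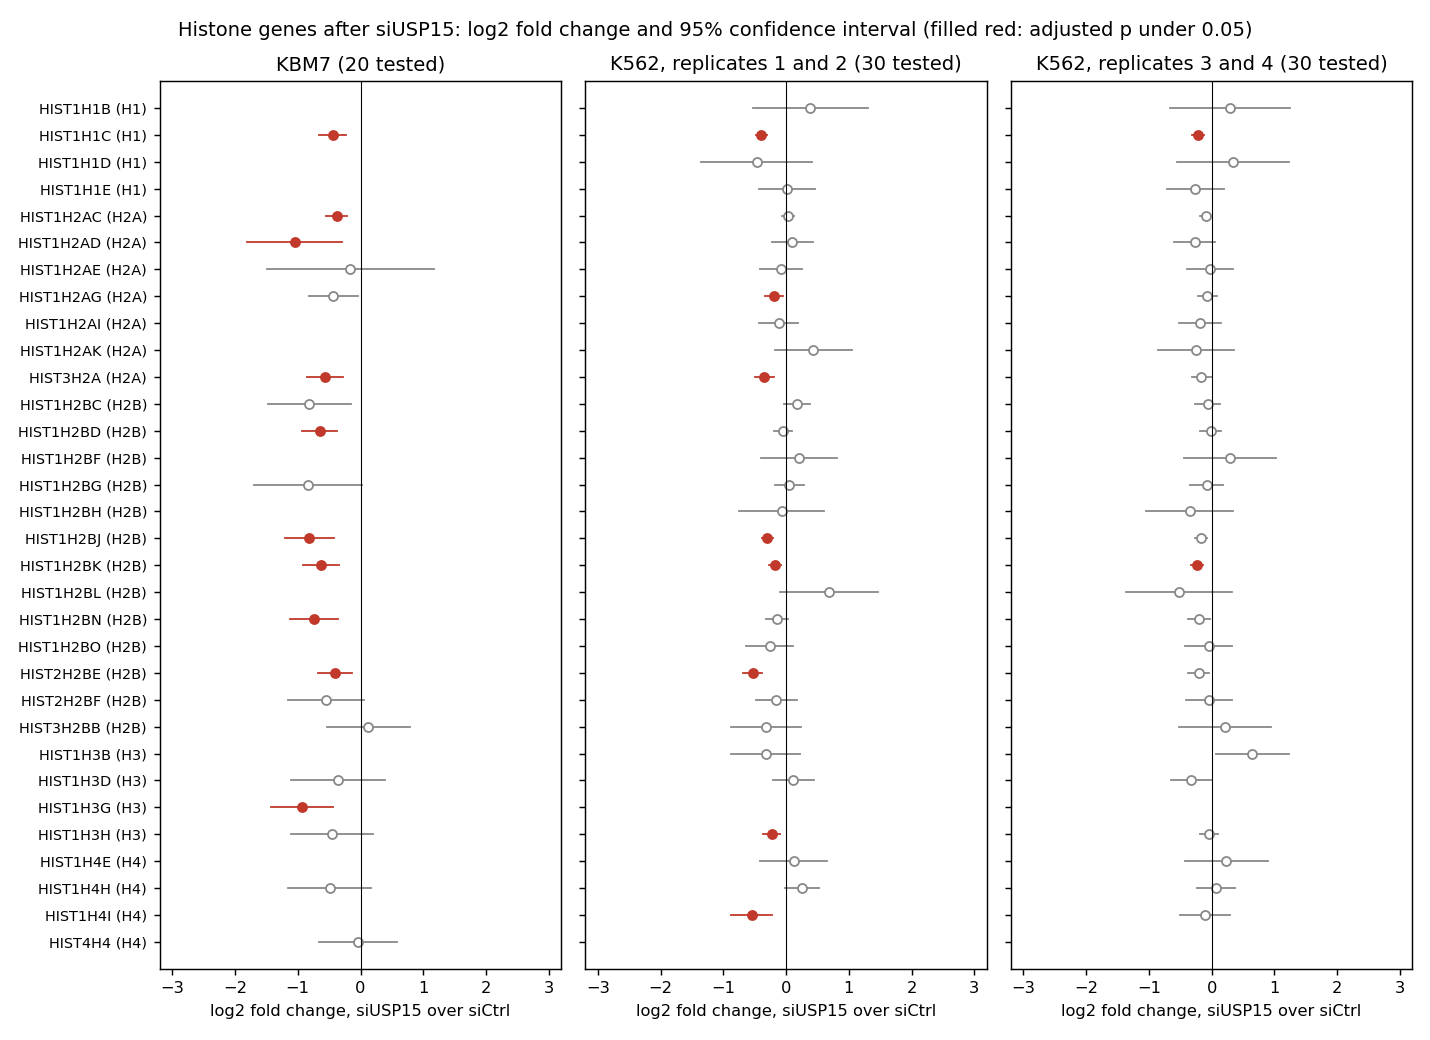
Log2 fold change of siUSP15 over siCtrl with its 95% confidence interval for every member tested in KBM7 (left), K562 replicates 1 and 2 (middle) and K562 replicates 3 and 4 (right). Filled red points have an edgeR adjusted p under 0.05, which is 10, 8 and 2 members, and all of these lie left of 0.

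In K562 the same question was asked in each replicate set. In replicates 1 and 2, 8 of 30 members fell and none rose, against 18.7% of all genes that fell and 18.0% that rose (13731 genes tested). The members' median log2 fold change was -0.10, and 18 of 30 were below 0. In replicates 3 and 4, 2 of 30 fell and none rose, against 1.25% of all genes that fell and 1.19% that rose, with a median of -0.08 and 23 of 30 below 0. At an unadjusted p under 0.05, 0 members were higher in replicates 1 and 2 and 1 was in replicates 3 and 4, and DESeq2 and limma-voom called 0 higher in either set. The summed level was 892 and 836 CPM in siUSP15 replicates 1 and 2, against 1006 and 1036 CPM in their controls, and 755 and 760 CPM in siUSP15 replicates 3 and 4, against 862 and 839 CPM in theirs. These were changes of -15.4% and -10.9%, and of -9.3% and -8.69% without HIST1H1C. Most of the H1 reads were of HIST1H1C, and the H1 sum changed by -23.6% and -14.1% in the 2 sets. The change of the H4 sum was -5.74% in replicates 1 and 2, where the groups overlapped, and 5.76% in replicates 3 and 4, where they did not.

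With the sets as a block, 5 of 30 members fell and none rose (0 also at an unadjusted p under 0.05, with DESeq2 and with limma-voom), against 8.90% of all genes that fell and 6.88% that rose. These were HIST1H1C, HIST1H2BJ, HIST1H2BK, HIST2H2BE and HIST3H2A. All 5 were also among the 10 of 20 tested members that fell in KBM7, and 18 members were tested in both lines. The share of all genes that fell in both lines was not counted, so that this overlap has no background to stand against. Without KBM7 siCtrl replicate 1, HIST1H1C, HIST2H2BE and HIST3H2A lost their KBM7 call, which left 2 of the 5. HIST2H2BE also lost it without KBM7 siUSP15 replicate 1, and DESeq2 did not call HIST2H2BE or HIST3H2A in KBM7. None of them passed in a fit that left the replicate sets out. HIST1H1C had 343 and 316 CPM in siUSP15 replicates 1 and 2, against 426 and 438 CPM in siCtrl, and 289 and 293 CPM in siUSP15 replicates 3 and 4, against 349 and 329 CPM in siCtrl. Every siUSP15 library was below every siCtrl library of its set, and the blocked log2 fold change was -0.31 ± 0.04 (SE, n = 4 libraries each, edgeR adjusted p = 0.00262). It was also 1 of the 2 members that fell in replicates 3 and 4 alone (log2 fold change -0.22 ± 0.04).

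HIST1H2BK was the other of these 2. Its levels were 107 and 104 CPM in siUSP15 replicates 1 and 2, against 115 and 123 CPM in siCtrl, and 93.9 and 94.6 CPM in siUSP15 replicates 3 and 4, against 110 and 112 CPM in siCtrl (blocked log2 fold change -0.20 ± 0.03). For HIST1H2BJ they were 62.7 and 60.5 CPM in siUSP15 replicates 1 and 2, against 76.6 and 74.4 CPM in siCtrl, and 55.6 and 55.8 CPM in siUSP15 replicates 3 and 4, against 63.4 and 62.1 CPM in siCtrl (-0.23 ± 0.04). Both H2B genes thus lay lower in each siUSP15 library than in the controls of its set, by less than in KBM7.

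HIST2H2BE had 39.1 and 32.5 CPM in siUSP15 replicates 1 and 2, against 51.6 and 50.9 CPM in siCtrl, and 24.1 and 23.5 CPM in siUSP15 replicates 3 and 4, against 27.9 and 27.1 CPM in siCtrl (blocked log2 fold change -0.38 ± 0.07, edgeR adjusted p = 0.00818). HIST3H2A had 17.4 and 16.7 CPM in siUSP15 replicates 1 and 2, against 21.8 and 21.4 CPM in siCtrl, and 18 and 17.7 CPM in siUSP15 replicates 3 and 4, against 19.7 and 20.4 CPM in siCtrl (-0.26 ± 0.06, edgeR adjusted p = 0.0136). The HIST3H2A call was lost without K562 siCtrl replicate 1, siCtrl replicate 2 or siUSP15 replicate 1.

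The H2B genes HIST1H2BD, HIST1H2BC and HIST1H2BN did not pass in the blocked K562 fit, with log2 fold changes of -0.03 ± 0.06, 0.06 ± 0.08 and -0.17 ± 0.06. HIST1H2BC had 17.8 and 15.6 CPM in siUSP15 replicates 1 and 2, against 13.3 and 16 CPM in siCtrl, and 17.3 and 17.1 CPM in siUSP15 replicates 3 and 4, against 18.5 and 17.5 CPM in siCtrl. The siUSP15 libraries of this gene overlapped their controls in the first set and lay below them in the second. HIST1H2BN had 17.3 and 16.9 CPM in siUSP15 replicates 1 and 2, against 19.9 and 18 CPM in siCtrl, and 14.3 and 16 CPM in siUSP15 replicates 3 and 4, against 17.9 and 16.8 CPM in siCtrl. Its siUSP15 libraries lay below the controls of both sets.

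H4 genes showed no common direction in K562. HIST1H4H had 6.58 and 6.34 CPM in siUSP15 replicates 1 and 2, against 5.04 and 5.75 CPM in siCtrl, with no overlap and the siUSP15 libraries higher, and it did not pass (log2 fold change 0.25 ± 0.13). HIST1H4I had 4.89 and 3.94 CPM in siUSP15 replicates 1 and 2, against 6.77 and 5.92 CPM in siCtrl, and 2.69 and 3.44 CPM in siUSP15 replicates 3 and 4, against 3.04 and 3.49 CPM in siCtrl. Its groups were apart in the first set only. The other linker histone genes tested, HIST1H1E and HIST1H1D among them, were not called in any siRNA comparison of K562.

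The remaining calls in replicates 1 and 2 were HIST1H4I (log2 fold change -0.55 ± 0.15), HIST1H3H (-0.23 ± 0.06) and HIST1H2AG (-0.20 ± 0.07), and DESeq2 called none of the 3. In replicates 3 and 4 their values were -0.10, -0.04 and -0.07. HIST1H2AC had 137 and 135 CPM in siUSP15 replicates 1 and 2, against 127 and 140 CPM in siCtrl, groups that overlapped. In replicates 3 and 4 it had 124 and 126 CPM in siUSP15, against 134 and 131 CPM in siCtrl, with the siUSP15 libraries below, and it did not pass. Leaving out siCtrl replicate 1, siCtrl replicate 2 or siUSP15 replicate 2 left 5 of the 8 calls in replicates 1 and 2, and without siCtrl replicate 2 there was 1 member that rose. In replicates 3 and 4 no call was left without siCtrl replicate 3 or siUSP15 replicate 4, and 1 without siCtrl replicate 4. The difference between the 2 sets in the response was tested for each member. None of the 30 passed in either direction with edgeR, against 6.08% of all genes with a higher and 6.91% with a lower response in replicates 3 and 4, while 3 were higher and 1 was lower at an unadjusted p under 0.05. Without K562 siUSP15 replicate 1, 3 members passed as higher. DESeq2 and limma-voom also called none.

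**Figure D3:**
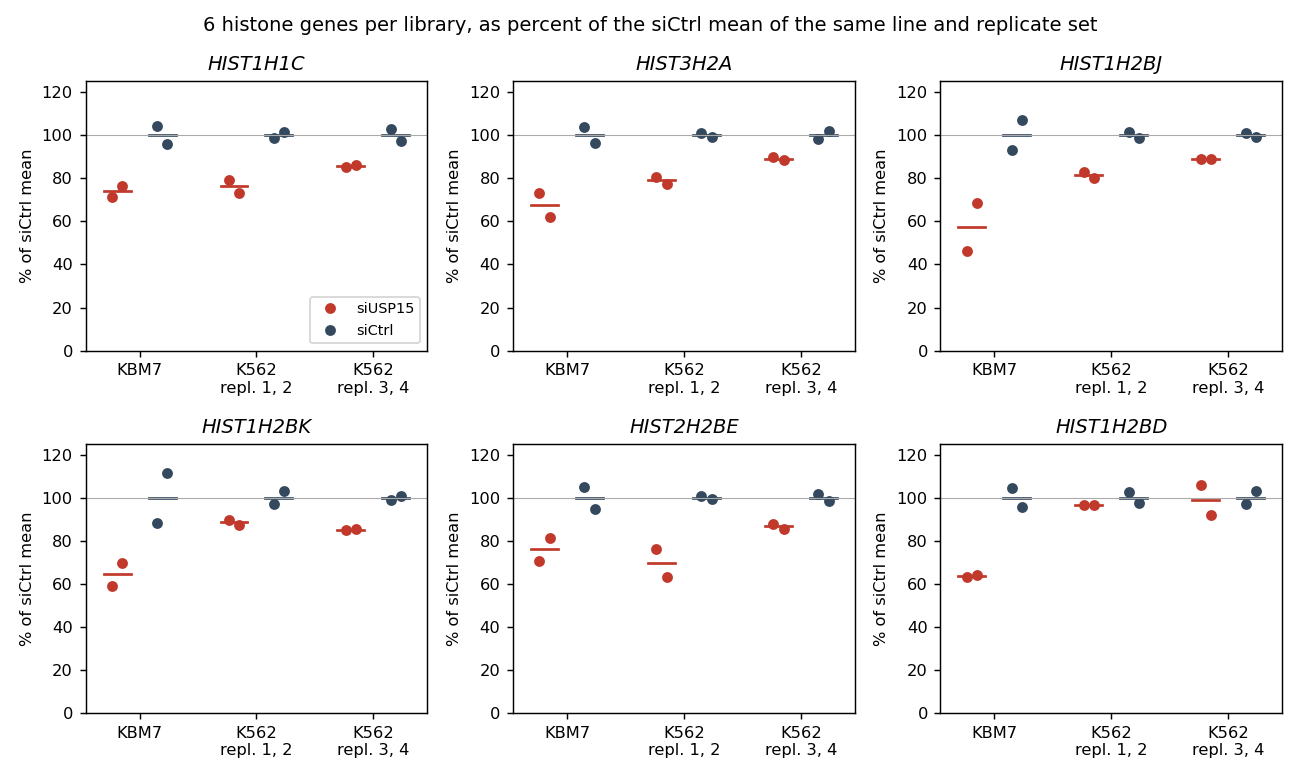
CPM of 6 members as percent of the siCtrl mean of the same line and replicate set, with 1 point per library, a bar at the mean, siUSP15 in red and siCtrl in dark blue. HIST1H2BJ sits at 46.3% and 68.4% in KBM7 siUSP15, while HIST1H2BD sits at 63.4% and 64.0% there and between 92.1% and 106% in K562 siUSP15.

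Whether the response differed between the lines was tested with both lines in 1 fit. Of 28 members tested, 7 fell more, or rose less, in KBM7 than in K562 and none the other way (0 also at an unadjusted p under 0.05, with DESeq2 and with limma-voom), against 12.6% of all genes with a lower and 10.6% with a higher response in KBM7. The 3 with the lowest p were HIST1H2BD, with a difference of -0.62 ± 0.13 on the log2 scale (SE, edgeR adjusted p = 0.0012), HIST1H2AC with -0.35 ± 0.08 (edgeR adjusted p = 0.00196) and HIST1H2BJ with -0.58 ± 0.15 (edgeR adjusted p = 0.00523). For HIST1H2BD the log2 fold changes of the separate fits were -0.65 in KBM7 and -0.03 in K562. HIST1H1C and HIST2H2BE, called in both lines, differed by -0.13 and -0.04 and did not pass. The count of 7 was 3 without KBM7 siCtrl replicate 2, 2 without KBM7 siUSP15 replicate 1, and 4 with K562 replicates 3 and 4 alone. With 4 groups in place of 6, that is with the K562 sets not told apart, no difference passed.

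The levels themselves differed far more between the lines than with the siRNA. In siCtrl cells 27 of 28 members were lower in KBM7 than in K562 and 1 was higher, against 41.9% of all genes that were lower and 43.6% that were higher (15833 genes tested). Of the 28, 18 also passed the filter on low counts in each line alone, and all 18 were lower in KBM7, with a median log2 fold change of -2.65, against 0.011 over all genes. The other 10 did not: 8 passed in K562 alone, HIST1H3G in KBM7 alone and HIST1H2AH in neither. For members that passed through 1 line only, the filter itself favours the direction they show. Summed over the members in both tables, H1 was 13.4 CPM in KBM7 siCtrl, against 447 CPM in K562 siCtrl replicates 1 and 2 and 356 CPM in replicates 3 and 4. H2B was 39.5 CPM in KBM7, against 336 and 282 CPM in the K562 sets, and H2A was 35.5 CPM, against 198 and 194 CPM. H3 was 3.88 CPM in KBM7, against 45.8 and 35.5 CPM in K562, and H4 was 2.36 CPM, against 14.7 and 9.9 CPM.

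HIST1H1C was 30.6-fold lower in KBM7 than in K562 (95% interval 28.2 to 33.3, log2 fold change -4.94 ± 0.06), and HIST1H3H was 31.8-fold lower (26.8 to 37.8). The H2B genes HIST1H2BJ, HIST1H2BC and HIST1H2BK were 12.6-, 13.2- and 10.6-fold lower. HIST1H2AC was 5.66-fold lower (5.25 to 6.11), HIST3H2A 3.09-fold and HIST2H2BE 5.03-fold. For the H4 genes HIST1H4H, HIST1H4I and HIST1H4E the values were 5.01-, 11.3- and 2.27-fold. HIST1H1E and HIST1H1D, further linker histones, were 7.15- and 3.31-fold lower, and HIST1H3B was 11.4-fold lower. HIST1H4I, HIST1H4E, HIST1H1E, HIST1H1D and HIST1H3B, and likewise HIST1H2BO below, are among the members that passed the filter in K562 alone. HIST3H2BB was the closest, 1.72-fold lower (1.14 to 2.61), as an average over the K562 sets. Against replicates 1 and 2 its log2 fold change was -1.32 and against replicates 3 and 4 it was -0.24 (edgeR adjusted p = 0.528), so that the call was lost there. It was also lost with DESeq2, without the K562 sets in the model, and without KBM7 siCtrl replicate 1 or K562 siCtrl replicate 1.

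HIST1H2BO was 18.4-fold lower (11.9 to 28.4), at 0.103 and 0.212 CPM in KBM7 siCtrl, against 2.53 to 2.71 CPM in the K562 siCtrl libraries on the scaling of each line.

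HIST1H3G ran the other way. It had 108 reads over the 2 KBM7 siCtrl libraries and 1 read over the 4 K562 siCtrl libraries, and no read in K562 siUSP15. Scaled to library size this was 185-fold more in KBM7, with an exact 95% counting interval of 32.4 to 7358. Its model covers 2411 bases and runs 1518 bases past the stem-loop. HIST1H2BI, of type H2B, had a row in the KBM7 table only, with at most 0.0847 CPM in any library.

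**Figure D4:**
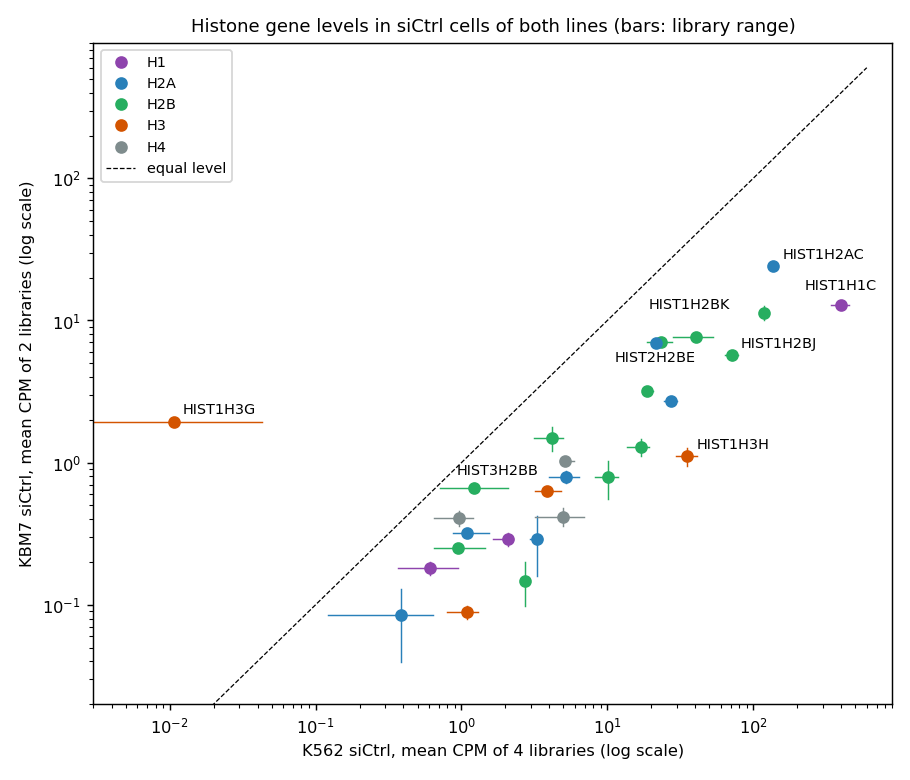
Mean CPM in siCtrl cells of K562 (x axis, 4 libraries) and KBM7 (y axis, 2 libraries) for the 28 members tested in both lines, on log scales and 1 common scaling, with bars for the range of the libraries and colours for the histone type. All points lie below the dashed line of equal level but HIST1H3G, with 108 reads in KBM7 and 1 in K562.

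The line and its medium cannot be told apart here, nor can whatever else differed between the separate KBM7 and K562 tables. The list sums that follow are on the scaling of each line, not on the common scaling, so that they do not rank the lines. The S phase list of 27 genes, which includes PCNA and the MCM helicase subunits, summed to 6431 to 6514 CPM in KBM7 siUSP15 and 6522 to 6701 CPM in KBM7 siCtrl. In K562 siCtrl it summed to 5060 to 6432 CPM. Of these 27 genes, 13 were higher and 11 lower in KBM7 siCtrl than in K562 siCtrl. The replication-independent variants, polyadenylated histone genes such as H3F3A, H3F3B and H2AFZ, summed to 2139 to 2204 CPM in KBM7 siCtrl and 1969 to 2374 CPM in K562 siCtrl. Of the 9 variants tested between the lines, 3 were higher and 6 lower in KBM7 siCtrl. Of 20 histone chaperones 6 were higher and 11 lower, and of 26 genes of histone mRNA processing and transcription 8 were higher and 13 lower. These counts stand against 43.6% of all genes that were higher and 41.9% that were lower. The erythroid list was lower in KBM7, as given above, and its part in the result was not tested.

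Between the K562 sets, siCtrl levels of 11 of 30 members were lower and 2 were higher in replicates 3 and 4 than in replicates 1 and 2, against 29.7% of all genes that were lower and 27.2% that were higher. The members' median log2 fold change was -0.24, against -0.02 over all genes. HIST2H2BE, given above, was lower by 0.90 ± 0.07 on the log2 scale (edgeR adjusted p = 4.96e-08), HIST1H1C by 0.35 ± 0.04 (4.12e-06) and HIST1H3H by 0.48 ± 0.07 (1.38e-05). HIST1H3H had 28.5 and 28.6 CPM in siCtrl replicates 3 and 4, against 39.5 and 40.2 CPM in siCtrl replicates 1 and 2, with no overlap. HIST1H4I had 3.04 and 3.49 CPM, against 6.77 and 5.92 CPM.

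H2B genes gave 7 of the 11 calls of a lower level and were 13 of the 30 members tested. HIST1H2BD had 18 and 19.1 CPM in siCtrl replicates 3 and 4, against 26.9 and 25.7 CPM in siCtrl replicates 1 and 2, and HIST1H2BJ had 63.4 and 62.1 CPM, against 76.6 and 74.4 CPM. Both were apart between the sets, with log2 fold changes of -0.50 ± 0.08 and -0.27 ± 0.05. HIST3H2BB (-1.10 ± 0.31), HIST2H2BF (-0.50 ± 0.16), HIST1H2BG (-0.38 ± 0.12) and HIST1H2BK (-0.11 ± 0.04) were each lost without siCtrl replicate 4, HIST2H2BF, HIST1H2BG and HIST1H2BK also with DESeq2, and HIST1H2BK also with RLE size factors and with no filter on low counts. HIST1H2AG was lower by 0.30 ± 0.07 on the log2 scale.

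HIST1H2BC and HIST1H3D were the members that were higher in replicates 3 and 4, by 0.29 ± 0.10 and 0.48 ± 0.15 on the log2 scale. Without siCtrl replicate 1 neither was called, and without siCtrl replicate 4 only 1 of the 2 was, while 7 of the 11 lower members were. By gene model, 8 of the 12 members that run more than 100 bases past the stem-loop were lower, and 2 of the 12 that end before it. The difference between the models was not tested. These counts and those that follow stand against 29.7% of all genes that were lower and 27.2% that were higher. Over the same libraries 24 of the 27 S phase genes and 15 of the 20 histone chaperones were higher in replicates 3 and 4, and 12 of the 26 genes of histone mRNA processing and transcription. SLBP, singled out after its values were seen, had 178 and 170 CPM in siCtrl replicates 3 and 4, against 116 and 116 CPM in siCtrl replicates 1 and 2 (log2 fold change 0.58 ± 0.04). Of the cell type markers, 4 of 4 hematopoietic genes (median log2 fold change -0.74), 2 of 2 tested myeloid progenitor genes (-1.04) and the 1 tested T cell gene (-1.93) were lower in replicates 3 and 4, and of 6 erythroid genes 4 were higher and 2 lower. The part of these markers in the result was not tested. The part of the set itself, which the labels give only as library numbers, was not tested.

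**Figure D5:**
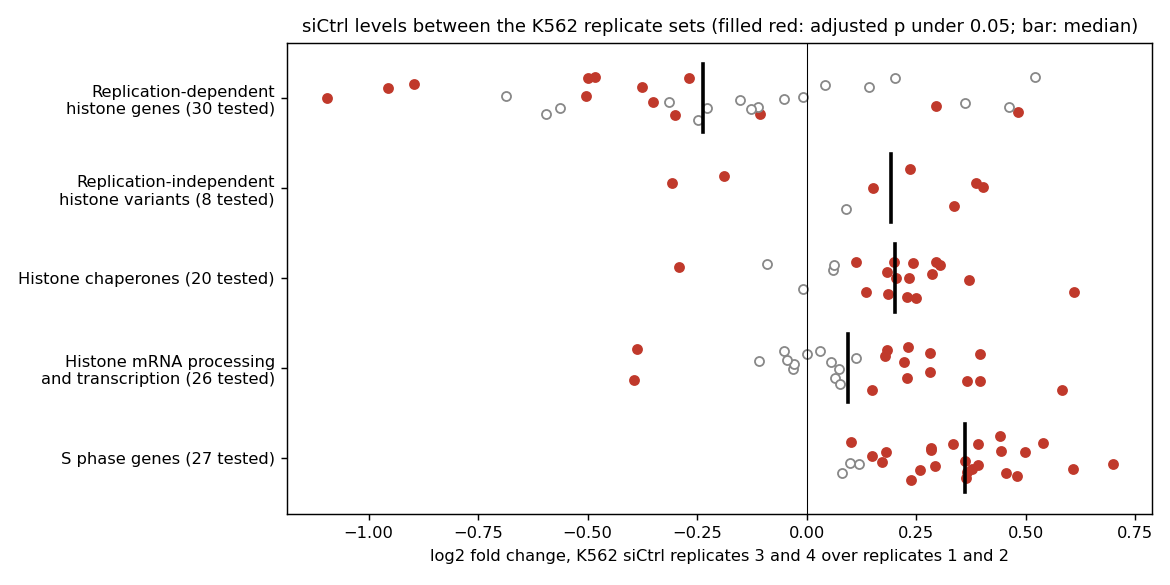
Log2 fold change of siCtrl levels in K562 replicates 3 and 4 over replicates 1 and 2 for each gene tested, by list, with filled red points for an edgeR adjusted p under 0.05 and a bar at the median. The histone genes have a median of -0.24, and the S phase genes have a median of 0.36.

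The genes that serve histone production are given by list. Of the 26 genes of histone mRNA processing and transcription, 4 fell and 1 rose in KBM7, where 15.8% of all genes fell and 13.2% rose, so that the fall was near the background. ERI1, the exonuclease that trims the stem-loop end, fell by 0.30 ± 0.05 on the log2 scale, and ZCCHC11, a terminal uridylyltransferase now named TUT4, by 0.21 ± 0.05. UPF1, the helicase of histone mRNA decay, and CPSF1 fell by 0.16 each. SLBP had 131 and 135 CPM in KBM7 siUSP15, against 135 and 135 CPM in siCtrl, and did not pass. In the blocked K562 fit 1 of the 26 rose, SRRT, a partner of the cap-binding complex (log2 fold change 0.18), and none fell. By set, 10 rose and 3 fell in replicates 1 and 2, and 0 rose and 0 fell in replicates 3 and 4. Of all genes 18.0% rose and 18.7% fell in replicates 1 and 2, and 1.19% rose and 1.25% fell in replicates 3 and 4. The counts by set of each list, here and below, stand against these shares. Of the S phase genes 8 rose and 3 fell in replicates 1 and 2 and 0 rose and 3 fell in replicates 3 and 4, and of the chaperones 6 rose and 2 fell in the first set and 0 and 0 in the second.

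Among the 27 S phase genes, 5 fell and 2 rose in KBM7, also to be read against 15.8% and 13.2% of all genes, as are the counts of variants and chaperones in KBM7 below. The blocked K562 counts stand against 8.90% of all genes that fell and 6.88% that rose. CDC6, which loads the replicative helicase, and CCNE2, a cyclin of S phase entry, fell by 0.30 and 0.29 on the log2 scale, CDK2 fell by 0.25, and GINS1 rose by 0.30. In the blocked K562 fit 3 fell and 2 rose, among them CDK2 at -0.26, CDC45 at -0.10 and GINS1 at 0.18. Of the 9 replication-independent variants tested in KBM7, H3F3A and H2AFV fell, by 0.20 and 0.17, and none rose. In the blocked K562 fit H1FX, a linker variant, fell by 0.30 ± 0.05 and was the only call among 8, while 1 rose and 1 fell in replicates 1 and 2 and none passed in replicates 3 and 4. Of the 20 chaperones, DAXX and ATRX, which deposit H3.3, fell in KBM7 by 0.39 and 0.30, and NASP, which binds H3 and H4, rose by 0.22. In the blocked K562 fit ASF1B and HJURP fell by 0.13 and 0.12 and SUPT6H rose by 0.11. The medians of these 4 lists lay between -0.08 and 0.02 on the log2 scale in KBM7 and in the blocked K562 fit, and between -0.06 and 0.06 in K562 replicates 1 and 2.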

How the data were processed

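Poly(A) selection, strandedness and read length are not given in the sources used here. Per the submitters' notes and the study's methods, reads were aligned with TopHat2 2.1.0 to hg38 and counted per gene on an Ensembl annotation, with HTSeq named in one source and Itreecount in the other. The authors deposited whole-number read counts per gene for each line, which were used here. The log2 CPM values and the columns of fold changes and p-values that the authors deposited beside them were not used. The K562 table is named as batch corrected, but its counts are whole numbers, and the K562 replicate sets differed on the first principal component, which held 64.4% of the variance.

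Counts were tested with edgeR 4.0.16 (R 4.3.3, TMM scaling, filterByExpr, quasi-likelihood F-test, two-sided) with Benjamini-Hochberg adjustment over all genes tested and a threshold of 0.05. KBM7 was fitted alone, K562 with 4 groups of siRNA and replicate set and again with the set as a block, and both lines together with 6 groups on genes in both tables. CPM are TMM-scaled, on the scaling of 1 line for siRNA comparisons and on a common scaling between lines. A fold change between lines is relative to all genes. Alternatives were RLE size factors, no filter, DESeq2 1.42.0, limma-voom (limma 3.58.1), leaving out each library and the replicate numbers as a block. The K562 sets taken alone between lines and the sums without HIST1H1C were chosen after seeing the data. The fits were also run on simulated counts with the same spread for all genes and no difference between replicate sets. These settings differ from the real libraries, so that the run does not show how the fits perform here.

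Replicate numbers in the labels were checked for pairing as the correlation of deviations from the group means. In KBM7 the same-numbered libraries had r = 0.000978, and in K562 r was 0.695, 0.55, 0.653 and 0.606 for numbers 1 to 4. Differently numbered K562 libraries of the same set correlated about as highly (0.551 to 0.701), and those of different sets negatively, so that the K562 values follow the replicate set and do not show a pairing by number. No 2 libraries agreed within sampling noise. Members and lists were chosen with earlier results of these data known. Genes named with values were the 3 members of each type with the highest mean CPM on the common scaling, among the members in both tables. To these came up to the 5 lowest p per siRNA comparison and direction and the 3 lowest p per direction between sets and between lines. Up to 4 genes of each other list per line with the lowest p were also named. Further members were named after their values were seen. Stem-loops were searched on hg38 with GENCODE release 44, and promoters came from RefSeq.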

Additional observations from a re-analysis of the deposited data

Results flagged for a closer look

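The response to siUSP15 differed between the lines in 7 members, by the test of the difference itself in the fit of both lines (edgeR's quasi-likelihood test). On the log2 scale, as the KBM7 response minus the K562 response, the values were -0.58 for HIST1H2BJ, -0.62 for HIST1H2BD, -0.35 for HIST1H2AC, -0.86 for HIST1H2BC, -0.42 for HIST1H2BK, -0.56 for HIST1H2BN and -1.66 for HIST1H4E. HIST1H2BD and HIST1H2AC passed without any 1 of the 12 libraries. HIST1H2BJ and HIST1H2BK were lost without KBM7 siCtrl replicate 2 or KBM7 siUSP15 replicate 1. HIST1H2BN was lost without any 1 of the 4 KBM7 libraries, HIST1H4E in 5 of the 12 cases and HIST1H2BC in 6 of them. HIST1H4E had 0.175 and 0.127 CPM in KBM7 siUSP15, against 0.482 and 0.381 CPM in KBM7 siCtrl, so that few reads stand behind its value.

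HIST1H3G had 1 read in K562 siCtrl replicate 2 and none in the other 3 K562 siCtrl libraries. Its gap to the next library is then the whole range of the group, a ratio of 1 that passes Dixon's test whatever a single read means, so that it says nothing about this library. It was the only such case among 50 groups of 4 libraries. Each group joins both K562 replicate sets, which stood apart, and a gap between the sets can keep the ratio low. The usual rate of Dixon's test therefore does not hold here, and the lack of other cases says nothing about the libraries.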

How the results depend on the processing

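No gene call changed direction: of 73 calls of single members over the 8 comparisons, 0 reversed and 40 passed in every alternative run. Most of the 40 were differences in level between the lines. Among siRNA calls, these were HIST1H2BJ, HIST1H2BD and HIST1H2BK in KBM7, and HIST1H1C, HIST1H2BJ, HIST2H2BE and HIST3H2A in K562 replicates 1 and 2. No siRNA call in replicates 3 and 4 or in the blocked fit, and no difference in response, passed in every run. DESeq2 gave 5 members lower in KBM7 in place of 10, 5 lower in K562 replicates 1 and 2 in place of 8, and 1 higher between the K562 sets in place of 2. Leaving out each library in turn gave 5 to 10 members lower in KBM7 (fewest without siCtrl replicate 1), 5 to 8 lower and 0 to 1 higher in K562 replicates 1 and 2, 0 to 3 lower in replicates 3 and 4, and 4 to 6 lower in the blocked fit. Between the sets it gave 0 to 3 members with a higher and 0 to 0 with a lower response, and 7 to 11 lower and 0 to 3 higher levels. Between the lines 26 to 29 were lower and 1 was higher in level, and 2 to 7 had a lower response in KBM7. The lone library of an arm was then taken to vary like the other groups. Without the replicate sets in the model (no replicate block), 0 members were lower in K562 and 0 had a lower response in KBM7 than in K562, in place of 5 and 7. With K562 replicates 3 and 4 alone, 4 members had a lower response in KBM7. The cause of these changes was not tested. With the replicate number as a block, 11 members were lower in KBM7 and 5 in K562, and none was higher. In KBM7, with 20 of 49 members under 10 reads in all, depth limits most H1, H3 and H4 genes.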

Other observations

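Members with few reads were not tested. In KBM7, 15 of the 49 members had between 10 and 99 reads over the 4 libraries. In K562, 17 of 57 had between 10 and 99 reads over the 8 libraries.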
